A study of Mus musculus with 9 samples.

Results

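The genes described here encode the contractile, calcium-handling and regulatory proteins of heart muscle. They were chosen by name as a list of 37 genes, and 35 of them were found on the arrays through their RefSeq accessions, out of 19698 named genes. Smpx and Xirp1 were not found in this way and have no value here. Each gene is given by its brightest probe over the 9 arrays, so its level can be set against itself between arrays but not against the level of another gene. By the heart chamber in which they are best known, 8 of the 35 measured genes are atrial, 3 are ventricular and 24 are shared by both.

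In the mouse, heart muscle is not confined to the heart. A sleeve of cardiomyocytes surrounds the pulmonary veins and reaches into the lung, and it makes atrial forms of the contractile proteins. The atrial and ventricular chambers use different light chains of myosin, Myl4 and Myl7 in the atria and Myl2 and Myl3 in the ventricles, while troponins, cardiac actin and the Z-disc proteins are common to both. In adult mouse heart, Myh6 is the main myosin heavy chain of both chambers, and Myh7 is the form of the embryonic ventricle and of slow skeletal muscle.

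RNA came from lungs of male C57BL/6 mice, 10 weeks old in the labels, on 9 one-color Agilent arrays. The 4 control arrays are named Control 1 to Control 4, and the 5 arrays named Irradiated 1 to Irradiated 5 are labeled as irradiated left lung. These labels state neither the dose of radiation nor the region of the lung nor the time of collection, so the irradiated arrays may differ from each other in all 3. Per the study's methods, RNA of replicate experiments was pooled before labeling, so the spread between arrays is a spread between pools. The lung was measured as bulk tissue, in which fewer cardiomyocytes and less RNA per cardiomyocyte cannot be told apart, and muscle of the pulmonary vein cannot be told apart from atrial or other heart tissue collected with the lung. The genes are therefore called cardiac muscle genes below.

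Of the spots of an array, 72.8% to 89.1% were called well above background, with none saturated. Levels are log2 values of the processed intensity after quantile normalization, and the lowest level called well above background was between 2.55 and 5.17, the latter on Irradiated 1. All 10 cardiac muscle markers and all 9 lung markers were well above background on the 4 control arrays. Values stood apart in 2 places before any comparison: the cardiac muscle genes of Irradiated 1 and the skeletal muscle genes of Control 3. The results are given with and without Irradiated 1, and the values of Control 3 are given where they bear on a gene.

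Irradiated 1 differed from the control arrays in most of these genes. It had the lowest measured value of the 9 arrays for 30 of the 35 genes, where 10.5% of all named genes were lowest on it. It lay at least 4-fold below the control mean for 25 genes, where 1.27% of all named genes did, and at least 2-fold below for 30, where 4.50% did. The median difference of the 35 genes was −4.19 on the log2 scale, beside 0.06 over all named genes. This is 1 array against 4, so the difference has no replicate check and no p-value. On Irradiated 1, 12 of the 35 genes were not well above background, and their fold has only an approximate lower bound, written as "at least" below. With these 12 at their bounds, 22 genes were at least 4-fold and 28 at least 2-fold below, and the median of the 35 was −3.04. At its bound, Irradiated 1 was still below the other 8 arrays for 28 genes, where 8.09% of all named genes were, and the order of Kcnj3 and Rbm20 among the arrays cannot be given. Of the 10 cardiac muscle markers, 9 were still well above background there, all but Nkx2-5. The median of the 35 genes was smaller in size, −2.68 and −2.63, with another background correction (normexp) and in the authors' normalized table.

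The values of the other 4 irradiated arrays overlapped with those of the control arrays for 34 of the 35 genes, all but Myh7, where 9.21% of all named genes did not overlap. The mean difference of the 35 genes from the control mean was −0.34, 0.29, −0.26 and 0.31 on Control 1 to Control 4. It was −3.59 on Irradiated 1 and −0.41, 0.34, −0.27 and −0.47 on Irradiated 2 to Irradiated 5. These means use the values as measured. Irradiated 1 therefore stood outside both groups, and the groups overlapped without it.

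**Figure D1:**
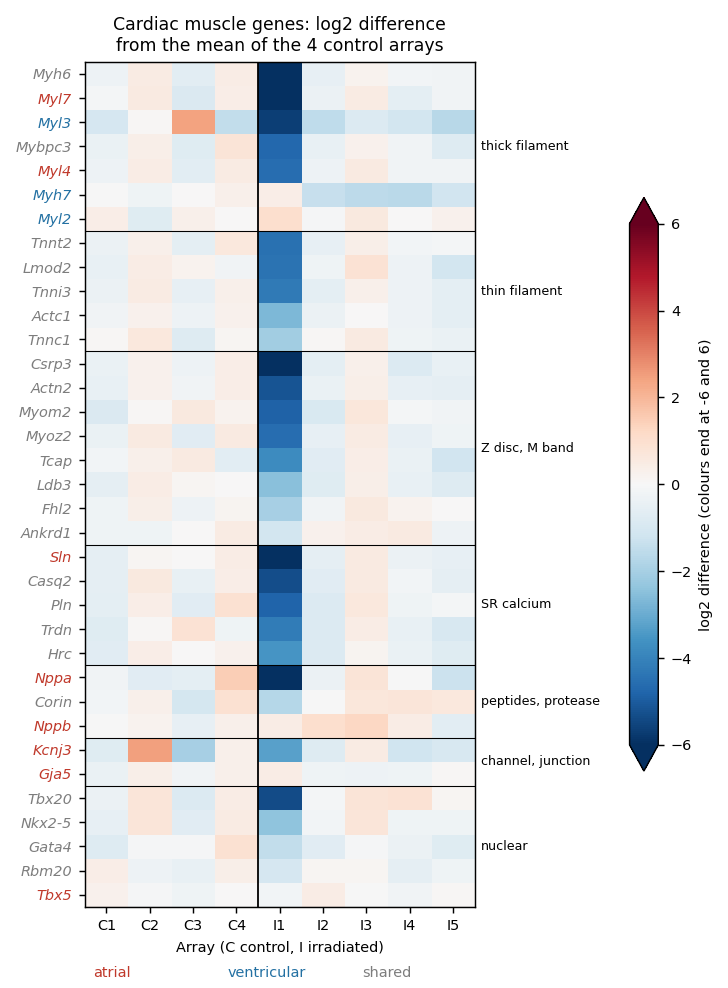
Log2 difference of each of the 35 measured cardiac muscle genes (rows, ordered by role) from the mean of the 4 control arrays, on each of the 9 arrays (columns); label colors give the chamber of each gene, and colors end at −6 and 6. The column of Irradiated 1 is blue for most rows, with Myh7, Myl2, Nppb, Gja5 and Tbx5 as the exceptions, and Myh7 is blue on Irradiated 2 to Irradiated 5.

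The thick filament genes held both very large differences and exceptions. Myh6, the alpha myosin heavy chain, had levels of 16.17, 16.98, 15.87 and 16.94 on the control arrays, 7.33 on Irradiated 1 and 15.98, 16.69, 16.33 and 16.27 on Irradiated 2 to Irradiated 5. Irradiated 1 was thus 573-fold below the control mean, while the other irradiated arrays lay within the range of the control arrays. A second probe of Myh6 gave 8.68 to 9.79 on the control arrays, 8.75 to 9.29 on Irradiated 2 to Irradiated 5 and 4.73 on Irradiated 1, where it was not well above background.

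The atrial light chains followed Myh6. Myl7, the atrial regulatory light chain, read 13.34, 13.98, 12.58 and 13.82 on the control arrays, 6.87 on Irradiated 1 and 13.09, 13.91, 12.83 and 13.22 on Irradiated 2 to Irradiated 5, so that Irradiated 1 was 94.4-fold below the control mean. Myl4, the atrial essential light chain, read 15.63, 16.39, 15.28 and 16.45 on the control arrays, 11.39 on Irradiated 1 and 15.62, 16.49, 15.72 and 15.75 on the others, so that Irradiated 1 was 23.4-fold below. Both light chains were lowest on Irradiated 1 and overlapped between the control arrays and the other 4 irradiated arrays. Mybpc3, the cardiac myosin-binding protein C, was 26.0-fold below the control mean on Irradiated 1.

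The ventricular light chains differed from each other. Myl3, which is also the light chain of slow skeletal muscle, read 11.57, 12.69, 15.00 and 11.14 on the control arrays, 6.94 on Irradiated 1 and 11.08, 11.80, 11.49 and 10.92 on the others. It was 50.4-fold below the control mean on Irradiated 1, and Control 3 lay above all other arrays. Myl2, the ventricular regulatory light chain, read 6.22, 5.07, 6.13 and 5.86 on the control arrays, 6.84 on Irradiated 1 and 5.75, 6.39, 5.85 and 6.09 on the others. Myl2 was thus highest on Irradiated 1, and its levels were not far above the lowest called well above background.

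Myh7, the beta myosin heavy chain, differed from Myh6. Its levels were 12.00, 11.75, 12.04 and 12.34 on the control arrays, 12.45 on Irradiated 1 and 10.63, 10.48, 10.42 and 10.90 on Irradiated 2 to Irradiated 5. Irradiated 1 lay 0.11 above the highest control array, on the log2 scale, while the other 4 irradiated arrays all lay below all 4 control arrays. Myh6 and Myh7 lie next to each other in the genome and their messages are closely related, and how far each probe is specific to its gene was not tested.

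**Figure D2:**
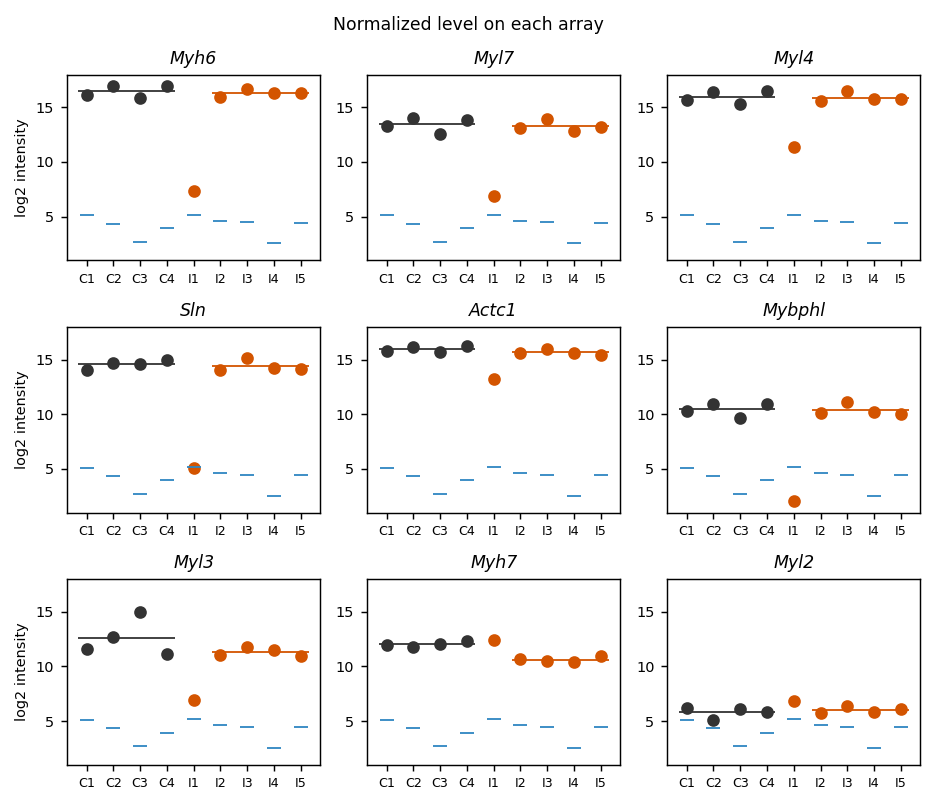
Normalized log2 intensity of 9 genes on each array, with control arrays in grey and irradiated arrays in orange; lines mark the mean of the 4 control arrays and of Irradiated 2 to Irradiated 5, and blue dashes the lowest level called well above background on that array. Myh6, Myl7, Myl4, Sln, Actc1, Mybphl and Myl3 drop on Irradiated 1 alone, Myl3 peaks at 15.00 on Control 3, and Myh7 is low on Irradiated 2 to Irradiated 5 only.

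All 5 thin filament genes were lowest on Irradiated 1. Tnnt2, which anchors the troponin complex to tropomyosin, read 14.21, 14.88, 14.00 and 15.22 on the control arrays, 10.08 on Irradiated 1 and 14.09 to 14.92 on the others. Actc1, cardiac actin, read 15.74, 16.19, 15.66 and 16.21 on the control arrays, 13.24 on Irradiated 1 and 15.39 to 15.96 on the others. The distance of Irradiated 1 from the control mean was 22.6-fold for Tnnt2, 18.9-fold for the inhibitory subunit Tnni3, 6.53-fold for Actc1 and 4.21-fold for the calcium-binding subunit Tnnc1. Lmod2, which sets filament length, was not well above background on Irradiated 1 and lay at least 2.18-fold below.

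All 8 Z-disc and M-band genes were also lowest on Irradiated 1. The range ran from Csrp3, the muscle LIM protein, 76.2-fold below the control mean as measured, to Ankrd1, a stress-responsive ankyrin repeat protein that was 2.12-fold below. Between them lay Actn2, the Z-disc actinin, 36.2-fold below as measured, Myom2 of the M band at 29.2-fold, Myoz2 at 23.8-fold, the titin cap Tcap at 13.8-fold, Ldb3 at 5.62-fold and Fhl2 at 3.96-fold. Neither Csrp3 nor Actn2 was well above background on Irradiated 1, so their folds are not exact. Ankrd1 and Fhl2 are also made by other cells of the lung.

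The genes of calcium release and uptake by the sarcoplasmic reticulum were all lowest on Irradiated 1. Sln, the atrial inhibitor of the calcium pump, read 14.03, 14.68, 14.59 and 15.00 on the control arrays and 14.05, 15.13, 14.24 and 14.10 on Irradiated 2 to Irradiated 5. On Irradiated 1 it read 5.12 and was not well above background, at least 677-fold below the control mean. Pln, the related pump inhibitor of both chambers, was at least 15.9-fold below, the calsequestrin Casq2 at least 15.3-fold, triadin, Trdn, at least 8.21-fold and Hrc, a calcium-binding protein of the reticulum, 11.7-fold.

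The secreted and membrane proteins were mixed. Nppa, the atrial natriuretic peptide, read 13.14, 12.71, 12.79 and 14.85 on the control arrays, 6.82 on Irradiated 1 and 13.01, 14.14, 13.32 and 12.09 on the others, so that Irradiated 1 was 93.9-fold below the control mean. Corin, the protease that activates this peptide, was at least 2.96-fold below. Nppb, the related natriuretic peptide, read 5.90 to 6.66 on the control arrays, 6.79 on Irradiated 1 and 5.73 to 7.59 on the others, so that Irradiated 1 lay above the control arrays and within the other irradiated arrays. Kcnj3, a channel subunit of the atrial potassium current, read 4.90, 8.10, 3.65 and 5.93 on the control arrays, was not well above background on 1 of them, and read 2.39 on Irradiated 1, also not well above background. Gja5, the connexin of atrial and arterial gap junctions, was highest on Irradiated 1, at 12.25, where the control arrays gave 11.39 to 12.16 and the other irradiated arrays 11.50 to 11.87.

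Among the nuclear proteins, the regulators differed from each other. Tbx20 was at least 4.45-fold and Nkx2-5 at least 3.90-fold below the control mean on Irradiated 1, where neither was well above background. Gata4 was 2.78-fold below. Tbx5, which is also active in lung mesenchyme, read 12.30 to 12.81 on the control arrays, 12.36 on Irradiated 1 and 12.34 to 12.98 on the others, and all 3 ranges overlapped. Rbm20, a splicing regulator of titin, was too close to background on Irradiated 1 for a fold.

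Of the 35 genes, 7 had further probes. That of Ldb3 was also lowest on Irradiated 1, at 7.75 against 9.46 to 10.02 on the control arrays. That of Kcnj3 read 4.37 to 5.76 on the control arrays and was not well above background on Irradiated 1, so that its order there cannot be given either. The further probes of Gja5, Rbm20, Tbx20 and Trdn were well above background on 5 or fewer arrays and are not read here.

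**Figure D3:**
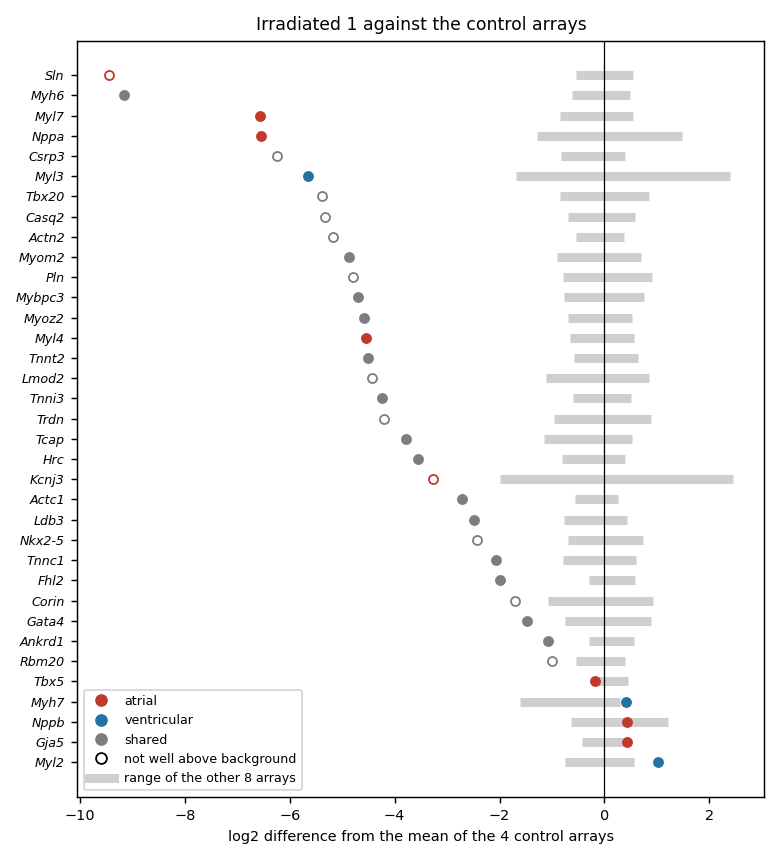
Log2 difference of Irradiated 1 from the mean of the 4 control arrays for each of the 35 genes (points, colored by chamber; open points were not well above background on Irradiated 1 and are drawn as measured), with the range of the other 8 arrays as grey bars. The points run from −9.45 for Sln to 1.03 for Myl2, and 30 of them lie to the left of their bar.

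Atrial, ventricular and shared genes were then set side by side on Irradiated 1. As measured, all 24 shared genes were lowest there, and 23 were with genes not well above background at their bounds, all but Rbm20. Their median difference was −4.22 on the log2 scale, or −3.29 with such genes at their bounds. Of the 8 atrial genes, 5 were lowest there (Myl4, Myl7, Nppa, Sln and Kcnj3) and Nppb, Gja5 and Tbx5 were not, with a median of −3.91, or −2.51 at the bounds, where Kcnj3 could not be placed. Of the 3 ventricular genes, 1 was lowest there (Myl3, at −5.66), and Myh7 and Myl2, at 0.42 and 1.03, were the highest of all 9 arrays. The median of the 3 was thus the value of Myh7, which lay only 0.11 above the highest control array. Being highest on Irradiated 1 held for 3 of the 35 genes, where 18.1% of all named genes were highest on it. With only 3 ventricular genes and 1 array, no test of the difference between chambers was made.

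Other genes known for their chamber were measured outside the 35. Mybphl, an atrial myosin-binding protein, read 10.31, 10.97, 9.65 and 10.90 on the control arrays and 10.12, 11.13, 10.20 and 10.04 on Irradiated 2 to Irradiated 5. On Irradiated 1 it read 2.08 and was not well above background. Of the other atrial genes, Bmp10 read 5.39 to 6.16 on the control arrays and 4.67 on Irradiated 1, where it was not well above background. Shox2 was not well above background on any control array, and Tbx3, at 14.36 to 14.95 on the control arrays and 14.80 on Irradiated 1, lay within their range. Which cells of the bulk lung made Tbx3 was not tested. The ventricular regulators Irx4 and Hey2 read 5.90 to 6.33 and 5.39 to 6.01 on the control arrays, and 5.94 and 6.13 on Irradiated 1.

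The wider list of heart genes held 30 genes, of which 29 were measured. Irradiated 1 was the lowest of the 9 arrays for 18 of these and at least 4-fold below the control mean for 10, where 10.5% and 1.27% of all named genes were. With the 4 genes not well above background there at their bounds, the counts were 18 and 9. Titin, Ttn, the elastic filament of the sarcomere, read 10.63, 12.00, 12.12 and 11.56 on the control arrays and 6.65 on Irradiated 1. The calcium pump Atp2a2 read 13.08 to 14.03 on the control arrays and 11.21 on Irradiated 1, and the calcium release channel Ryr2 read 8.39 to 9.90 and 7.22. Further genes, chosen after their values were seen, were the oxygen carrier myoglobin, Mb, at 12.87 to 14.14 against 4.39, and the mitochondrial creatine kinase Ckmt2, at 11.77 to 12.99 against 4.34, and neither was well above background on Irradiated 1.

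Genes of other tissues were read on the same arrays. On Irradiated 1, the mean difference from the control mean was −1.41 for 15 skeletal muscle genes, −0.86 for 9 smooth muscle genes, −3.08 for 6 adipose genes and 0.12 for 9 lung genes. The value of the skeletal muscle genes rests on Control 3, since it was −0.22 against the other 3 control arrays, while the smooth muscle and adipose genes were at −0.92 and −3.19 against these. Of the smooth muscle genes, 8 of 9 were lowest on Irradiated 1, among them Acta2, at 13.82 against 14.81 to 15.32 on the control arrays. Their mean difference was −0.16, −0.25, −0.54 and −0.41 on Irradiated 2 to Irradiated 5. Without Irradiated 1, all 9 smooth muscle genes had a negative difference, with a median of −0.41, and limma called 0 of 9, where 1.65% of all named genes were called. Of the 9, 4 had an unadjusted p under 0.05, where 13.5% of all named genes did. All 6 adipose genes were at least 2-fold below the control mean there, but this list was also low on Irradiated 3 to Irradiated 5, at −1.65, −2.68 and −3.36, where the cardiac muscle genes were not. The adipose gene Cfd, adipsin, read 14.82 to 16.44 on the control arrays, 12.32 on Irradiated 1 and 15.73, 14.25, 12.78 and 11.79 on Irradiated 2 to Irradiated 5. The part of adipose and smooth muscle tissue in the values of Irradiated 1 was not tested.

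On Control 3, all 15 skeletal muscle genes were the highest of the 9 arrays, with a mean difference of 3.57. Acta1, skeletal actin, read 14.67 there and 8.96 to 10.42 on the other 8 arrays. Among the 35 cardiac muscle genes, 3 were highest on Control 3, namely Myl3, Tcap and Trdn, where 2218 of all 19698 named genes were highest. Tcap read 15.05 there and 14.94 on Irradiated 3. The atrial genes averaged −0.62 and the shared genes −0.28 on Control 3. Myh7, also a slow skeletal muscle gene, read 12.04 on Control 3, within the range of the other control arrays.

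**Figure D4:**
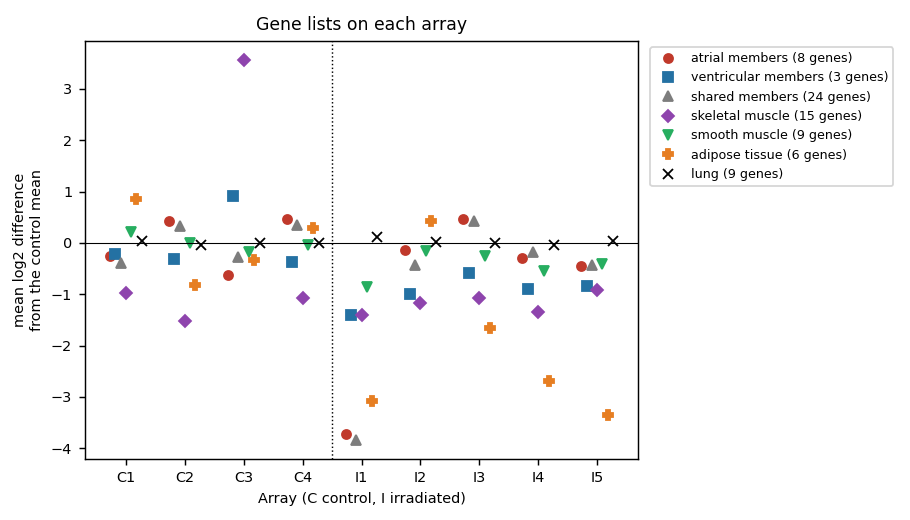
Mean log2 difference from the mean of the 4 control arrays, on each array, for the atrial, ventricular and shared cardiac muscle genes and for genes of skeletal muscle, smooth muscle, adipose tissue and lung. Atrial and shared genes drop on Irradiated 1 to −3.71 and −3.83, skeletal muscle genes peak on Control 3 at 3.57, adipose genes are also low on Irradiated 3 to Irradiated 5, and lung genes stay near 0.

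Across all 9 arrays, no cardiac muscle gene passed the test between control and irradiated in the model without a block. With limma and an adjusted p under 0.05, 0 of 35 were called, where 0.416% of all named genes were, and 1 had an unadjusted p under 0.05, where 12.3% of all named genes did. The difference was negative for 31 genes and positive for 4, with a median of −1.06 beside 0.01 over all named genes. The standard error of a difference was up to 1.78, for Sln. For no gene did the groups fail to overlap, where 5.15% of all named genes did not overlap. The smallest exact two-sided permutation p of the 35 genes was 0.0556, for Myh7, and the smallest that 4 arrays against 5 allow is 0.00794. When the scan pairs described below entered the 9-array model as a random block, limma called Myh7, with a difference of −1.28 and an adjusted p of 0.0144. This was 1 of 35 genes, where 9.45% of all named genes were called in that model. Irradiated 1 had no partner and was a block of its own there. The difference of Myh7 was −1.06 over 9 arrays without a block and −1.42 without Irradiated 1.

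Without Irradiated 1, Myh7 was lower in the irradiated arrays and no other of the 35 genes passed the test. The mean of Myh7 was 12.03 ± 0.24 (SD, n = 4) on the control arrays and 10.61 ± 0.22 (SD, n = 4) on Irradiated 2 to Irradiated 5. The difference was −1.42 on the log2 scale with a standard error of 0.15, a 2.68-fold lower level, with an adjusted p of 0.00815 from limma over all probes. The exact two-sided permutation p of Myh7 was 0.0286, the smallest that 4 arrays against 4 allow. This was 1 of 35 genes called, where 1.65% of all named genes were called and 0.569% were called lower. It was also the only one of the 35 whose groups did not overlap, where 9.21% of all named genes did not.

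All arrays but Irradiated 1 could be matched in 4 scan pairs by image position and local background, each with 1 control and 1 irradiated array, although the labels state no such pairing. Within these pairs Myh7 differed by −1.37, −1.27, −1.62 and −1.43, lower in all 4. Its adjusted p stayed between 0.0122 and 0.0394 when each of the 8 arrays was left out in turn, Control 3 included. The call was lost in the authors' normalized table, with an adjusted p of 0.0605 and a difference of −0.92, and with the replicate number as a block, with 0.0998 and −1.53. On the same 4 irradiated arrays the adipose genes had a mean difference of 0.43, −1.65, −2.68 and −3.36. The smooth muscle genes were below the control mean on each. The skeletal muscle genes were at −1.17, −1.07, −1.35 and −0.91 on these arrays. On Control 1 to Control 4 they were at −0.97, −1.51, 3.57 and −1.08, so that Control 3 raised their control mean. This list held neither Myh7 nor Myl3, the slow skeletal muscle genes named here, so slow muscle was not read apart. The part of these tissues in the difference of Myh7 was not tested. Because Irradiated 1 was left out for the levels of these same genes, and because it was the highest array for Myh7, the call rests on a choice made with the values known.

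None of the remaining 34 genes was called by limma without Irradiated 1. Of the 35 differences, 31 lay within 0.5 of 0 on the log2 scale, 27 were negative and 8 positive, and the median was −0.19, beside −0.01 over all named genes. This median ran from −0.41 without Irradiated 3 to −0.034 without Control 4, and leaving out any of the 8 arrays but Irradiated 4 moved it by over 1.5 times. Only Myh7 had an unadjusted p under 0.05, which 13.5% of all named genes had. The medians were −0.18 for the atrial and −0.19 for the shared genes, and that of the atrial genes was 0.035 without Control 2 and 0.018 without Control 4. The median of the 3 ventricular genes, −1.27, was the value of Myl3, and it was −0.47 without Control 3. The second smallest adjusted p after that of Myh7 was 0.606, for Actc1, with a difference of −0.30 and a standard error of 0.17. The largest positive differences were those of Nppb, 0.52 with a standard error of 0.40, and Corin, 0.50 with a standard error of 0.40. Kcnj3 differed by −0.60 with a standard error of 0.84. Myl3 differed by −1.27 with a standard error of 0.73, and its difference within the scan pairs was −0.49, −0.89, −0.22 and, in the pair that held Control 3, −3.51.

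Within the scan pairs the median over the 35 genes was −0.10, 0.03, 0.20 and −0.77. Of the 35 genes, 5 were lower on the irradiated array of all 4 pairs (Myh7, Actc1, Myl3, Hrc and Ldb3), and Tbx5 was higher in all 4, where 17.3% of all named genes were lower and 17.9% higher in all 4 pairs. The differences of Tbx5 were 0.01 to 0.17. Nppa ranged from −2.76 to 1.43 between pairs. For the wider list of heart genes, limma without a block called 0 of 29 with all arrays and 0 without Irradiated 1. In these models 0.416% and 1.65% of all named genes were called. In each, 1 of the 29 had an unadjusted p under 0.05, where 12.3% and 13.5% of all named genes did. That list holds Gja1, the main connexin of the ventricle, named after its values were seen, at 8.47 to 9.59 on the control arrays and 9.72, 9.59, 9.86, 10.58 and 10.54 on Irradiated 1 to Irradiated 5. In the 9-array model with these pairs as a random effect, limma called Gja1, with a difference of 0.94 and an adjusted p of 0.0138. This was 1 of 29 genes, where 9.45% of all named genes were called. Without Irradiated 1, limma with these pairs as a block also called Gja1, with a difference of 0.98. Its adjusted p from limma was 0.0445 with a fixed block and 0.0159 with a random block. The share of all named genes called in the block models without Irradiated 1 is not given here.

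**Figure D5:**
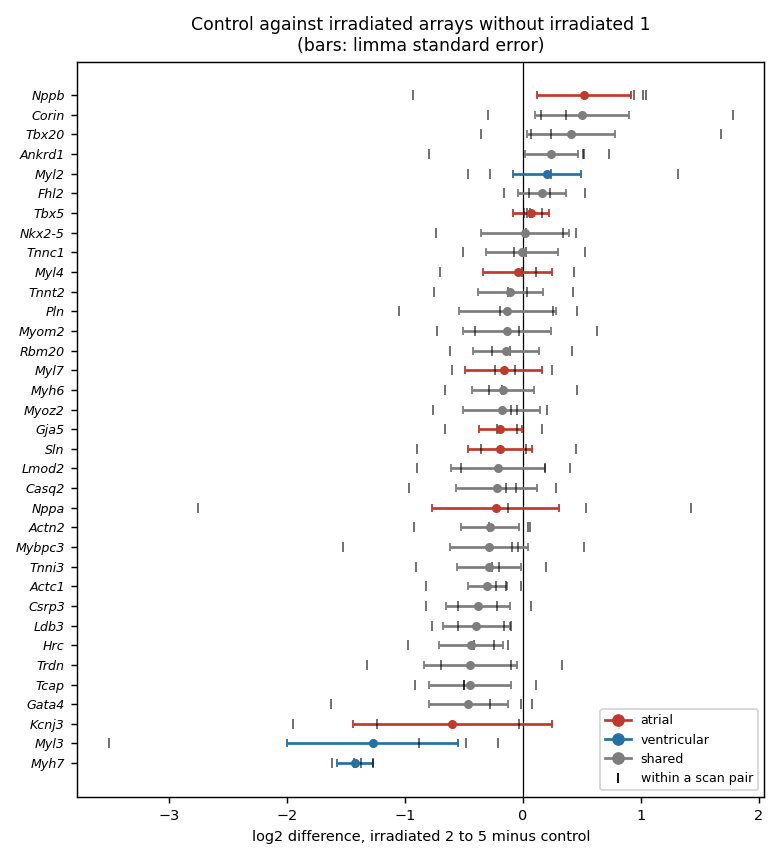
Log2 difference of Irradiated 2 to Irradiated 5 from the 4 control arrays for each of the 35 genes (points with the limma standard error, colored by chamber), with the differences within each of the 4 scan pairs as ticks. Myh7 lies at −1.42 with all ticks between −1.62 and −1.27, and Myl3 at −1.27 with ticks from −3.51 to −0.22. The points of 31 genes lie within 0.5 of 0.

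Part of the genes followed the mean of the others among the arrays that were not Irradiated 1. Over these 8 arrays, 15 of the 35 genes had a Pearson correlation above 0.8 with the mean of the other 34, and over all 9 arrays 24 did. Of the named genes outside the 35, 0.708% and 1.26% had one above 0.8 with the mean of the members. Actn2 and Casq2, at 0.98 and 0.97 over 8 arrays, were close to the mean of the rest, while Tbx5, Myl2 and Myl3 were below 0, at −0.35, −0.29 and −0.04, and Myh7 and Rbm20 were near it, at 0.17 and 0.19. These are descriptions over few arrays that share their normalization. Among the control arrays alone, Control 2 and Control 4 were high and Control 1 and Control 3 low, and the median range of a gene over the 4 control arrays was 1.15 on the log2 scale.

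Of the named genes outside the lists with a range of at least 1 log2 unit, the 10 most like the mean of the cardiac muscle genes over 9 arrays had correlations of 0.98 to 0.99. They were Trim63, a muscle ubiquitin ligase, Ank1, Dhrs7c, Art1, Hamp, which encodes the iron hormone hepcidin, Hspb3, Yipf7, the muscle phosphoglycerate mutase Pgam2, the potassium channel Kcnd2 and Bves. On Irradiated 1, 8 of these 10 lay under the lowest level called well above background, so that their differences and correlations rest on values that are not exact. The other 2, Pgam2 and Bves, differed from the control mean by −3.45 and −1.91 there. Hamp read 9.97, 10.81, 10.02 and 10.01 on the control arrays, 2.75 on Irradiated 1, under that level, and 9.50 to 11.08 on the others. Over the 8 arrays without Irradiated 1, the 10 most like genes were Yipf7, Vmn2r100, Cdh3, Prps1l1, Ank1, Tnni3k, Adprhl1, 1700034I23Rik, Mlip and St8sia3, with correlations of 0.90 to 0.97. Of these, 2 were also among the first 10, and 4 were well above background on 2 or fewer of the 9 arrays.

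Promoters are shown for genes whose levels set the pattern above. They are the 250 bases before a transcription start, from RefSeq on the mouse build GRCm38.p6, written 5′ to 3′ on the strand of the gene. Capitals mark the motifs that were searched on both strands. Myl7, Myl3 and Actc1 were low on Irradiated 1 and hold a CArG box, the site of serum response factor. Myh6 and Myh7 are the neighbors with unlike patterns, and for Myh7 the window of the more downstream of 2 starts is given.
Myl7, chr11:5898783-5899032, minus strand: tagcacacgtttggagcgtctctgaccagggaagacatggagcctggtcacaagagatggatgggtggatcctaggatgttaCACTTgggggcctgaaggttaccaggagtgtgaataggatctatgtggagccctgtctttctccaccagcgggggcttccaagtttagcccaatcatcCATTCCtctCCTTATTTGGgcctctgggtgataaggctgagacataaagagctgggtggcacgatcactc
Myl3, chr9:110763428-110763677, plus strand: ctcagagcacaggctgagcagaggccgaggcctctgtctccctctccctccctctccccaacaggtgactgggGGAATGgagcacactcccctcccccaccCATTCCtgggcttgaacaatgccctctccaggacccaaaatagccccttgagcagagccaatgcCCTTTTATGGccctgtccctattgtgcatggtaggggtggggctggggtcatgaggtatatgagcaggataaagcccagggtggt
Actc1, chr2:114052876-114053125, minus strand: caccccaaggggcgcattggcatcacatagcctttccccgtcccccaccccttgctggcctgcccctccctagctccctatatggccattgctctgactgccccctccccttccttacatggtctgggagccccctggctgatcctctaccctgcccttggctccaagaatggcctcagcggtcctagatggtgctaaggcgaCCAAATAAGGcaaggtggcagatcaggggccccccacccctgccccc
Myh6, chr14:54966608-54966857, minus strand: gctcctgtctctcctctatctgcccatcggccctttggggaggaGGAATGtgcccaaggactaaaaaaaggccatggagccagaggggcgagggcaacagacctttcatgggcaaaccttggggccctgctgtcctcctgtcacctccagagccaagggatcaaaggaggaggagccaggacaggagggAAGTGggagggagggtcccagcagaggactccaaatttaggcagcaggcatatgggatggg
Myh7, chr14:54994550-54994799, minus strand: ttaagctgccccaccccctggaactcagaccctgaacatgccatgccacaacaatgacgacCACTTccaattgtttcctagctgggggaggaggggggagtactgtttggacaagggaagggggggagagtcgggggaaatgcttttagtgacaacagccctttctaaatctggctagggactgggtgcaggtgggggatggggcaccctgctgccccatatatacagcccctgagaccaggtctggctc

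The CArG box was found in 7 of 34 windows of the cardiac muscle genes (20.6%), which belong to 5 of the 28 genes with a window, and in 1.47% of all 32851 windows. The 5 genes were Actc1, Fhl2, Ldb3, Myl3 and Myl7. All 5 were lowest on Irradiated 1, as were 30 of the 35 measured genes. The MEF2 site was in 11.8% of the member windows and 2.92% of all windows. The other motifs, which may overlap each other, were CATTCC, the MCAT element, in 23.5% and 12.6%, AGATAA, bound by GATA factors, in 17.6% and 9.99%, TATAAA in 14.7% and 12.4%, and AAGTG, an NK2 site, in 38.2% and 40.7%. Neither the window of Myh6 nor that of Myh7 held a CArG box in these letters. Several windows of one gene overlap, and a match of letters is not a bound site.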

How the data were processed

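The authors deposited, for each of the 9 arrays, the intensity values of the Agilent Feature Extraction software before any normalization between arrays, and a table of normalized intensity values for the series. That table matched the median signal minus the local background of every array in rank (Spearman correlation 1). Quantile normalization is the method that the study names for it, and it served as an alternative. The software version and the genome build of the array design are likewise not given in the sources used here.

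The processed signal, which the scanner software had corrected for background, was used. Control spots (1377 of 44397) were removed, as were spots that the software marked as outliers. A probe was kept if its signal exceeded the local background 1.4-fold on 4 or more of the 9 arrays, which 39302 of 39429 did. Values were log2 transformed, quantile normalized across arrays and averaged over the spots of a probe. A RefSeq gene table of GRCm38.p6, consulted for symbols alone, named 25988 probes by accession. Each gene was represented by its brightest probe. Of the 35 genes, 7 had more than 1 probe, and the fit was run over all probes.

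The groups were compared in limma (3.58.1, under R 4.3.3). The model had an intensity trend in the variance and no covariates, and p-values were adjusted by Benjamini-Hochberg over every kept probe, with a threshold of 0.05. The model was also run on simulated data, and the outcome is not given here. Single genes were also compared by permuting the arrays between the groups, exactly and two-sided. Background shares were counted over the named genes that had a value on every array the count needed: 19698 for limma, 19679 for the 2-fold and 4-fold counts, and 19658 over 9 or 19659 over 8 arrays for the others. Where a gene was not well above background on Irradiated 1, the fold was set against the higher of 2 levels, the probe's own and the lowest one called well above background there. It is an approximate lower bound, since the lowest level called is a minimum over all probes and not a limit of detection. Csrp3 and Actn2, at 5.36 and 5.33, lay above that level of 5.17 without being well above background, and their folds are as measured. The labels give each array a group and a replicate number. Nothing in the labels says that arrays came from separate mice, so p-values measure the spread between these pools. Precision is limited by how few arrays there are.

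The members, the lists of other genes and the choice to leave out Irradiated 1 were made with earlier results of these data known. The genes named were the 35 members, the atrial and ventricular genes outside them, Atp2a2, Ryr2, Ttn, Acta1, the 3 brightest genes of each marker list and the 10 genes most like the mean of the members over 9 and over 8 arrays, besides Mb, Ckmt2 and Gja1, chosen after their values were seen. An atrial gene outside the members is not reported here. Whether arrays of the same replicate number deviate together was checked: the correlations of their deviations were 0.06, −0.02, −0.05 and −0.17, so the numbers were not used as pairs. Scan pairs were found from image position and local background. The correlations of their deviations were 0.28, 0.20, 0.33 and 0.45. A pair had to be nearest to each other, and by this rule Irradiated 1 has no partner. Its image height of 224 pixels and local background of 40 lay near those of Control 2 (218 and 43.5) and Irradiated 3 (220 and 45.5).

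Alternatives were array weights, averaging the probes of a gene, the authors' table, normexp (offset 50), 75th percentile scaling, a background filter that asked for all arrays or was dropped, no trend in the variance, a threshold of 0.01, replicate numbers as a block, scan pairs as a fixed or random block, and the omission of each array in turn. For the chamber medians and Myl3 without Irradiated 1, and for marker lists without Control 3, such omissions were chosen after seeing the data.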

Additional observations from a re-analysis of the deposited data

Results flagged for a closer look

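In the irradiated group, Irradiated 1 lay far from the other 4 arrays for 19 genes. Its level was the lowest at 7.33 for Myh6, 10.08 for Tnnt2, 8.78 for Tnni3, 13.24 for Actc1, 6.94 for Myl3, 11.39 for Myl4, 6.87 for Myl7 and 6.82 for Nppa. It was also the lowest at 5.12 for Sln, 4.37 for Pln, 6.80 for Mybpc3, 6.34 for Myoz2, 5.36 for Csrp3, 8.01 for Hrc, 3.79 for Casq2, 5.33 for Actn2, 6.85 for Myom2 and 1.95 for Tbx20. Of these 18 genes, Sln, Pln, Csrp3, Casq2, Actn2 and Tbx20 were not well above background there. For Myh7 it was the highest, at 12.45.

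The mean differences from the control mean on Irradiated 1 stood apart in the same way, at −3.59 for the 35 genes, −3.71 for the atrial and −3.83 for the shared genes. In the control group, Control 3 stood apart for the skeletal muscle genes at 3.57 and for the ventricular genes at 0.91. Dixon's test was run on 86 groups of 4 or 5 arrays and passed in 24, where chance gives about 5% of them. Genes that vary together are not separate events.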

How the results depend on the processing

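Of 260 settings of the summary values, 232 kept the value within its spread, 26 moved it and 2 turned its sign. The median difference of Irradiated 1 from the control arrays was −2.68 under normexp, −2.63 in the authors' table and −3.55 with all probes of a gene averaged. For the atrial genes it was −2.69 under normexp and −3.01 in the authors' table, and for the shared genes −2.72, −2.93 and, with all probes averaged, −3.67. Leaving out each control or other irradiated array in turn gave −4.35 to −3.93 for the members, −4.35 to −3.42 for the atrial and −4.39 to −4.12 for the shared genes.

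Over 9 arrays, leaving out each array in turn gave 0 to 1 genes called, the 1 being Myh7 without Irradiated 1, and medians of −1.37 to −0.19 for the members, −1.43 to −0.18 for the atrial and −1.40 to −0.19 for the shared genes, each highest without Irradiated 1. The ventricular median was −0.68 in the authors' table. With scan pairs as a random block, 1 gene was called (Myh7, −1.28, adjusted p 0.0144) along with 9.45% of all named genes, beside 0.416% without a block, and the medians were −0.54, −0.53 for the atrial and −0.53 for the shared genes. In that model Irradiated 1 was a block of its own. Without Irradiated 1, no gene was called in the authors' table or with a replicate block, which could use 3 pairs of arrays (Myh7 −1.53). The replicate block changed no other call. Among the 20 alternatives for Myh7 without Irradiated 1, 18 kept the call, with adjusted p from 0.000354 to 0.0394, and 2 lost it, with 0.0605 in the authors' table and 0.0998 with the replicate block. The lowest of these, 0.000354, came with scan pairs as a random block, and 0.0185 with scan pairs as a fixed block. The share of all named genes called in either model is not given, so these calls of Myh7 cannot be set against it. Leaving out each of the 8 arrays gave medians of −0.41 to −0.034 for the members, −0.31 to 0.035 for the atrial, −1.43 to −0.47 for the ventricular and −0.41 to −0.050 for the shared genes, the atrial median being positive without Control 2 (0.035) or Control 4 (0.018). Of the 29 other heart genes, 1 (Gja1) was called without Irradiated 1 with scan pairs as a fixed block and as a random block. It was also called with the random block over 9 arrays, where 9.45% of all named genes were called. The share of all named genes called in the block models without Irradiated 1 is not given here, so these calls cannot be set against it.

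Some genes changed sign over 9 arrays. Corin was −0.21 under 75th percentile scaling, −0.084 with the replicate block, and between −0.30 and 0.50 as each array was left out. Tbx5 was −0.0079 in the authors' table and −0.087 to 0.11 with arrays left out. Ankrd1 was 0.026 with array weights, 0.044 with the replicate block, 0.14 with the random block and −0.17 to 0.24 with arrays left out. With arrays left out, Gja5 ranged from −0.21 to 0.049, Nkx2-5 from −0.77 to 0.020, Tbx20 from −1.15 to 0.41 and Fhl2 from −0.48 to 0.16, of which Nkx2-5, Tbx20 and Fhl2 were positive without Irradiated 1 alone. The cause of these changes was not tested. Genes close to background on Irradiated 1 are limited to a bound.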
